A study of Homo sapiens with 15 samples.

Results

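The interferon response and MHC class I genes described here are 44 genes taken by symbol from the deposited count matrix of 35012 gene symbols, and all 44 were found in it. They comprise 5 interferon transcription factors, 6 RNA sensors and OAS enzymes, 19 antiviral effectors, 7 genes of the ISG15 system and of ADP-ribosylation and 7 genes of MHC class I presentation. RNA had been sequenced from HepG2 cells, an established line of human liver cancer, into which short hairpins had been brought by lentivirus. The study compared 4 groups, a non-silencing hairpin shNS (NS, 4 libraries), shBrg1 (BRG1, 4), shBrm (BRM, 3) and both hairpins (double, 4). BRG1 (gene SMARCA4) and BRM (gene SMARCA2) are the alternative ATPase motors of SWI/SNF chromatin remodelling complexes, and the comparisons ask what each does alone and when both are depleted. All groups, the controls included, were infected in polybrene and put under puromycin, and RNA was taken on day 5, so no group without virus was measured. The labels give 1 cell line and name no hairpin sequence, and they do not say whether replicates came from separate cultures, so p-values measure only how far these samples spread, and that spread may be technical.

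Interferons are secreted antiviral cytokines that act through cell-surface receptors and JAK kinases. Type I and III interferons activate a complex that holds STAT2 and IRF9 and binds the interferon-stimulated response element (ISRE), while interferon gamma acts at GAS elements. Cytosolic sensors such as RIG-I (gene DDX58) and MDA5 (gene IFIH1) detect viral RNA and lead to interferon synthesis. Many effector genes are both targets and parts of the pathway, and hepatocytes and hepatoma cells can mount this response. MHC class I molecules present peptides cut by the proteasome and carried into the endoplasmic reticulum by the TAP transporter.

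The libraries held between 11500149 and 27187991 estimated counts. In each group libraries 1 and 2 separated from 3 and 4, with 4.97 to 8.33% and 1.33 to 3.55% of counts from mitochondrial transcripts. Values within each set (libraries 1 and 2 first) are therefore given beside many of the results, though not all. The BRM group has only library 3 in the second set, so its values there rest on 1 library. SMARCA4 fell by 11.04-fold with the BRG1 hairpin and SMARCA2 by 9.07-fold with the BRM hairpin, and both passed in the double group. In the authors' deposited tables the log2 change of SMARCA4 was -3.50 for BRG1 and -2.75 for the double group. SMARCA2 was -3.22 for BRM, -3.95 for the double group and also lower for BRG1, at -0.64 (the authors' adjusted p = 0.0219). The double and BRG1 groups may thus differ in BRG1 depletion as well. Hepatocyte markers such as ALB and AFP were abundant in every library, and their summed level ran from 24009 to 37174 CPM (counts scaled to the library total) with NS, 5590 to 18619 with BRG1, 48881 to 52867 with BRM and 11069 to 25321 in the double group. Of 8 leukocyte markers CD3E and MS4A1 had 0 counts in all libraries and 6 stayed under 1 CPM. Their summed level (29.2 to 41.9, 30.8 to 59.1, 55.3 to 75.6 and 53.3 to 94.2 CPM in the NS, BRG1, BRM and double groups) came mostly from CD68, a lysosomal protein. Of 6 stromal markers COL1A2, DCN and LUM stayed under 1 CPM, while COL1A1, ACTA2 and PDGFRB reached 239, 188 and 22.8 CPM. Against NS only ACTA2 passed (edgeR adjusted p under 0.05), higher for BRM and for the double group. The stromal list summed to 61.5 to 118 CPM with NS, 120.4 to 295 with BRG1, 123 to 214 with BRM and 89.9 to 139 in the double group. The 4 endothelial markers summed to 4.85 to 6.36, 5.13 to 5.95, 4.11 to 9.96 and 3.55 to 4.29 CPM. The part of these marker levels in the results below was not tested. In such bulk samples fewer responding cells and less RNA per cell cannot be told apart.

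The upstream sequences of 4 members are shown first, because these genes carry the main contrasts below and differ in the interferon elements they hold. Each run is the 250 bases before the RefSeq start (GRCh38.p14), 5′ to 3′ on the gene's strand, all 4 on the plus strand, at chr10:89392373-89392622 (IFIT1), chr15:88638766-88639015 (ISG20), chr15:44711267-44711516 (B2M) and chr14:24161015-24161264 (IRF9). Capitals mark the ISRE core, which is GAAA and GAAA with any 2 bases between them (on the other strand TTTC and TTTC), and in IRF9, which has no such match in this window, the GAS motif TTCNNNGAA. The GENCODE v29 models of IFIT1, B2M and IRF9 begin inside these windows and that of ISG20 upstream of its window.
IFIT1: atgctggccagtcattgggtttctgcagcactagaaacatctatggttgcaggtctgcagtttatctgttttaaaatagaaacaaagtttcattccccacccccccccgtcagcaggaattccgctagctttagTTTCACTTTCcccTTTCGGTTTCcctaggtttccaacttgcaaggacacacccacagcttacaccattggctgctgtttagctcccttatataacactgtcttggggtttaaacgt
ISG20: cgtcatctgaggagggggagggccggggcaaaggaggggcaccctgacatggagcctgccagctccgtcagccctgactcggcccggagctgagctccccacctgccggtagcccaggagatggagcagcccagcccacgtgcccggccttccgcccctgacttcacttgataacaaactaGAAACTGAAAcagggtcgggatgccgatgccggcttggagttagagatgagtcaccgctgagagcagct
B2M: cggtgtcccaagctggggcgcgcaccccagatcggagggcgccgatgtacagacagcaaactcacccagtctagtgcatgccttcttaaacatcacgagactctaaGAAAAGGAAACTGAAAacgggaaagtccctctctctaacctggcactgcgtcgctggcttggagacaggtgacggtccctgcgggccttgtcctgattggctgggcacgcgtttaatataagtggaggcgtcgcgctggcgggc
IRF9: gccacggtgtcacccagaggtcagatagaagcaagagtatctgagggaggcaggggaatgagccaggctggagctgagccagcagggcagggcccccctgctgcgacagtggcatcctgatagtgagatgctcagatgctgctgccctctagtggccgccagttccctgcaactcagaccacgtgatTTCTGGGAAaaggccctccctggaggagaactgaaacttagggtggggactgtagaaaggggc
IFIT1 holds 2 ISRE cores, beginning 116 and 103 bases before the start, ISG20 holds 1 (69 bases before) and B2M holds 2 that overlap (144 and 138 bases before). IRF9 holds 1 GAS match, 63 bases before its start. Of 44 members 35 matched a RefSeq promoter entry, and 20 of these held an ISRE core on either strand against 3.07% of 27305 promoters of the same length. A GAS match stood in 8 of the 35 members and in 6.78% of all promoters. The members were listed as interferon-stimulated genes, so this describes the list and is no test. Neither motif was found in the windows of DDX58 (RefSeq name RIGI), MX1, PARP9 or STAT2, which says only that these letters are absent there.

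Members were called in both directions in each of the 3 comparisons with NS. Of the 44 members 37 had enough counts to be tested (filterByExpr, fitted with all 14621 genes that passed), and the 7 others, IRF7, OASL, IFIT2, IFITM1, SAMD9L, IFI44 and IFI44L, held at most 1.02 CPM in any library. After BRG1 knockdown 3 of the 37 rose and 5 fell (edgeR, adjusted p under 0.05, called below). Of all genes tested 22.5% were called in that comparison, 12.5% higher and 9.97% lower, so the 8 called members lie near the background. After BRM knockdown 5 rose and 3 fell, against 13.9% of all genes, 7.66% higher and 6.26% lower. In the double knockdown 5 rose and 5 fell, against 21.6% of all genes, 11.8% higher and 9.9% lower. The median log2 change of the 37 was -0.31 for BRG1, -0.15 for BRM and -0.05 for the double group, beside 0.02, 0.03 and 0.02 for all tested genes. The estimate was below 0 in 26 of the 37 for BRG1, 22 for BRM and 19 for the double group, while 51.3, 52.3 and 51.3% of all genes had one above 0. In all, 18 of the 37 were called in at least 1 of these comparisons and 19 in none. The 3 comparisons share the NS libraries, so their values are given side by side. Groups did not overlap in CPM for 11 members with BRG1 (4 up, 7 down), 10 with BRM (5 up, 5 down) and 10 in the double group (4 up, 6 down), where 28.5, 23.3 and 27.3% of all genes did not. All 26 calls kept their sign within both sets of libraries. The calls were made on these same libraries, so such agreement, here and below, is not an independent test. A test of the difference between the sets, chosen after seeing the data, called 0 members for BRG1 (6 at an unadjusted p under 0.05) and only BST2 for BRM and for double, against 2.49, 2.26 and 3.71% of all genes. With the replicate number as a block, the called members numbered 14 (4 up, 10 down) for BRG1 and 15 (7 up, 8 down) for double, against 36.4 and 35.6% of all genes. The block was used because same-numbered NS and BRG1 or NS and double libraries deviated together, which cannot tell a shared number from a shared set. The same block gave 15 members for BRM against 28.4% of all genes, though same-numbered NS and BRM libraries did not all deviate together. With a term for the set of libraries 16 (4 up, 12 down), 15 (10 up, 5 down) and 15 (7 up, 8 down) members were called for BRG1, BRM and double, against 39.1, 32 and 38.6% of all genes. Libraries 1 and 2 alone gave 17 calls for BRG1 (4 up, 13 down), against 5645 of 14488 genes. Libraries 3 and 4 alone gave 12 of 38 members (3 up, 9 down), against 3756 of 14705 genes. DESeq2 called 10, 10 and 11, against 27.2, 19.3 and 26.7%. The BRM count rests on few libraries, since it went from 8 to 3 without BRM library 2 and to 5 without NS library 1, 2 or 4.

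**Figure D1:**
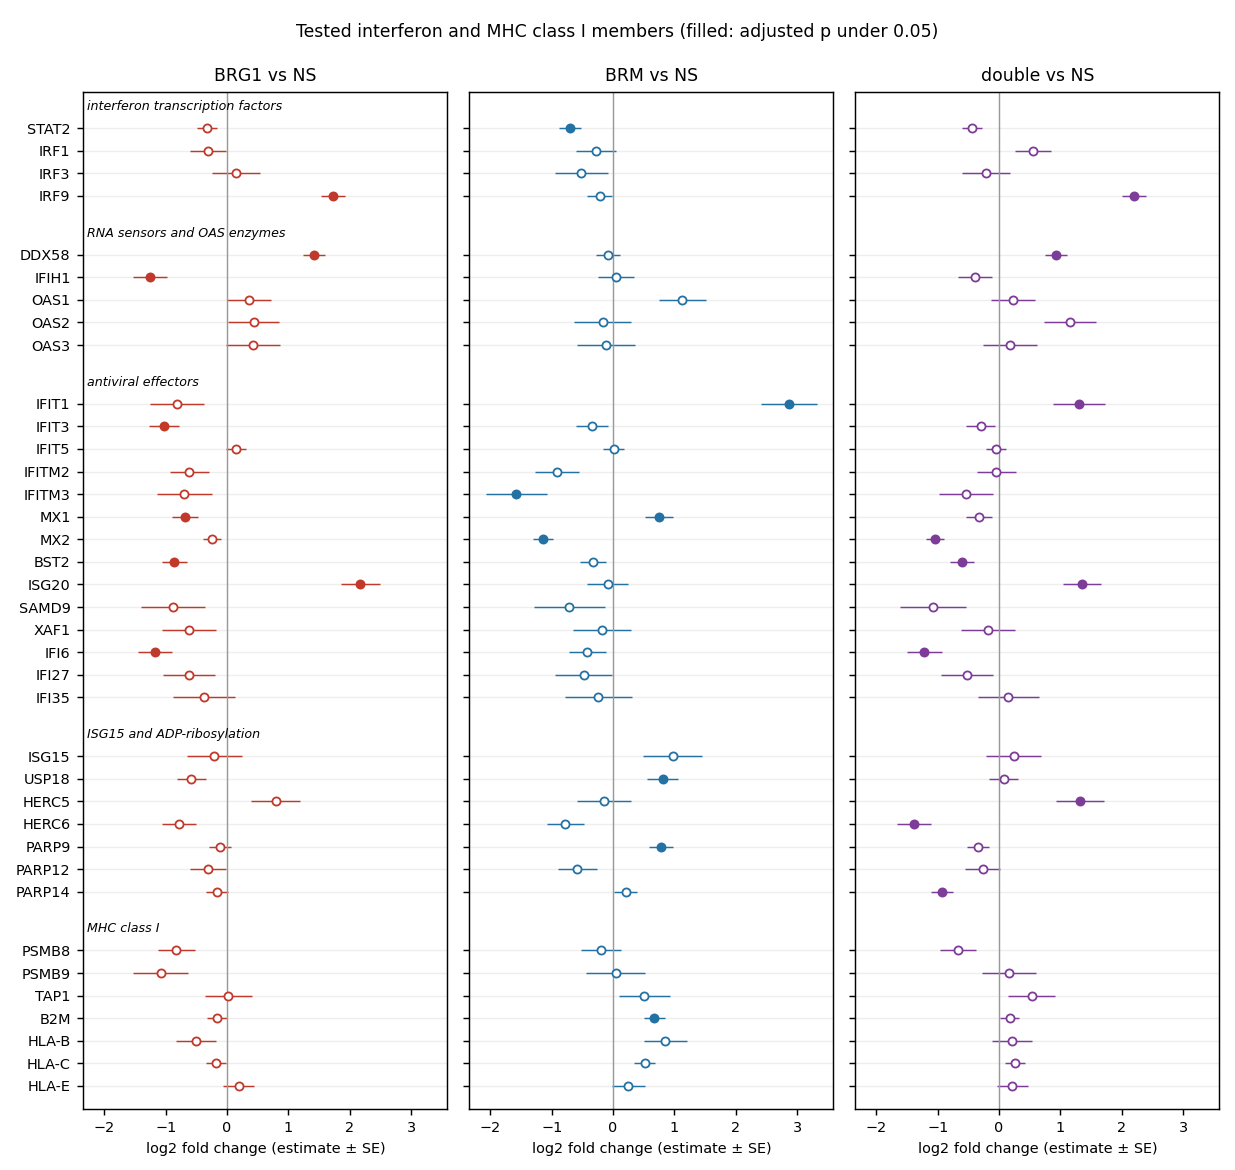
Log2 fold change against NS (x axis, estimate ± SE) of each of the 37 tested members (rows, grouped by role) after BRG1, BRM and double knockdown, with filled points for adjusted p under 0.05. Filled points lie on both sides of 0 in each panel, with 3 up and 5 down for BRG1, 5 up and 3 down for BRM, and 5 up and 5 down for the double group.

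Among the transcription factors IRF9 rose with BRG1 loss and STAT2, its partner in the ISRE-binding complex, was not called there. IRF9 (chromosome 14, 24161053 to 24166565, plus strand, protein-coding) held 17.6, 19.2, 11.4 and 12.9 CPM in NS libraries 1 to 4, 55.1, 51.8, 48.5 and 46.9 with the BRG1 hairpin, 16.7, 10.7 and 12.1 in the 3 BRM libraries and 63.1, 67.2, 85.4 and 64.7 in the double knockdown. Every BRG1 and double library lay above every NS and BRM library. The log2 change was 1.73 ± 0.19 (SE, edgeR adjusted p = 3.07e-05) for BRG1 and 2.20 ± 0.20 (SE, edgeR adjusted p = 5.69e-06) for the double group, with 1.54 and 1.96 within the sets for the first and 1.83 and 2.62 for the second, and -0.22 ± 0.21 for BRM (adjusted p = 0.559). A stretch of IRF9 is shared with AL136295.5, an annotated gene that overlaps it on the same strand, and 49.5% of its 31-base words occur in other genes' transcripts, so its reads can be divided. AL136295.5 itself held 30 to 129 counts per library.

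STAT2 (chromosome 12, 56341597 to 56360155, minus strand), the signal transducer specific to type I and III interferon, held 33.5, 37.1, 39.02 and 34.7 CPM with NS, 26.5, 29.4, 29.97 and 28.7 with BRG1, 29.2, 17.00 and 20.4 with BRM and 30.6, 25.8, 23.5 and 26.5 in the double group. All 11 knockdown libraries lay below all 4 NS libraries. It fell by 0.70 ± 0.18 (log2) with the BRM hairpin (SE, edgeR adjusted p = 0.016, -0.62 and -0.85 within the sets). The changes of -0.33 ± 0.16 for BRG1 and -0.44 ± 0.16 for the double group did not pass (adjusted p = 0.159 and 0.0649), although the second passed with the replicate block, at -0.44 ± 0.15 (adjusted p = 0.0373). The BRM call was lost without BRM library 2 and within libraries 1 and 2 alone (highest adjusted p = 0.0795). IRF1, a factor of the interferon gamma response, had log2 differences of -0.31 ± 0.30, -0.28 ± 0.32 and 0.56 ± 0.30 in the 3 comparisons and IRF3, the factor downstream of the sensors, of 0.14 ± 0.39, -0.51 ± 0.42 and -0.22 ± 0.39, none of which passed with all libraries and no block. Within the sets IRF1 stood at -0.88 and 0.11 for BRG1, -0.51 and 0.09 for BRM and 0.00 and 0.97 for the double group, and it was called for BRG1 in libraries 1 and 2 alone, at -0.88 ± 0.24 (adjusted p = 0.0175), and for the double group in libraries 3 and 4 alone, at 0.92 ± 0.18 (adjusted p = 0.00504). IRF3 was lower with BRM in both sets, at -0.67 and -0.11, and passed there with the block at -0.43 ± 0.14 (adjusted p = 0.0372), with the set term at -0.44 ± 0.13 (adjusted p = 0.0168) and in libraries 1 and 2 alone at -0.67 ± 0.15 (adjusted p = 0.0118). For BRG1 IRF3 was -0.04 and 0.24 and for the double group -0.40 and -0.12 within the sets. IRF7, the amplifier of interferon alpha synthesis, had 35 counts over all 15 libraries and was not tested.

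The RNA sensors RIG-I and MDA5 moved in opposite directions after BRG1 knockdown. DDX58 (chromosome 9, 32455705 to 32526324, minus strand), which encodes RIG-I, held 17.5, 16.7, 13.8 and 13.8 CPM with NS, 45.8, 46.9, 36.5 and 36.1 with BRG1, 15.7, 15.9 and 12.1 with BRM and 32.2, 32.9, 31.9 and 20.8 in the double group. The BRG1 and double libraries did not overlap NS or BRM, and the double group lay below the BRG1 group. DDX58 rose by 1.42 ± 0.18 (SE, edgeR adjusted p = 7.88e-05) for BRG1 and 0.93 ± 0.18 (SE, edgeR adjusted p = 0.00179) for the double group, with 1.44 and 1.39 within the sets for the first and 0.93 and 0.93 for the second, and none of its 31-base words is shared with another gene. The BRM value was -0.09 ± 0.19 (adjusted p = 0.834).

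IFIH1 (chromosome 2, 162267079 to 162318703, minus strand), which encodes MDA5, held 9.18, 8.89, 11.8 and 13.2 CPM with NS, 3.16, 3.41, 5.003 and 6.49 with BRG1, 13.1, 10.1 and 10.2 with BRM and 10.7, 9.58, 4.99 and 7.55 in the double group. The BRG1 libraries lay below all NS and BRM libraries, while the double group overlapped NS. The log2 change was -1.25 ± 0.28 (SE, edgeR adjusted p = 0.00477) for BRG1 (-1.46 and -1.13 within the sets), 0.04 ± 0.29 for BRM and -0.40 ± 0.27 for the double group, the last at 0.16 and -1.01 within the sets and called in libraries 3 and 4 alone, at -1.06 ± 0.26 (adjusted p = 0.0126). Of the OAS enzymes, which make the second messenger that activates RNase L, none was called against NS with all libraries and no block. OAS1 was 1.13 ± 0.39 after BRM knockdown (adjusted p = 0.0659), where DESeq2 called it at 1.11 ± 0.41 (adjusted p = 0.0397), the block at 1.17 ± 0.23 (adjusted p = 0.00225) and the set term at 1.25 ± 0.24 (adjusted p = 0.00113). Its values within the sets were 1.25 and 1.32. OAS2, at 0.388 to 1.69 CPM over the NS and double libraries, was 1.16 ± 0.42 in the double group and passed with the replicate block, at 1.10 ± 0.37 (adjusted p = 0.0337), with 1.36 and 0.94 within the sets. OAS3 was 0.42 ± 0.44 for BRG1 and passed there with the block, at 0.59 ± 0.20 (adjusted p = 0.0311). OAS3 stood at 1.13 and 0.08 within the sets, and the difference between the sets was -1.04 (edgeR adjusted p = 0.0646).

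Among the antiviral effectors ISG20 rose with BRG1 loss and IFIT1 with BRM loss. ISG20 (chromosome 15, 88636153 to 88656483, plus strand), an exonuclease that degrades RNA, held 2.91, 3.84, 6.18 and 6.92 CPM with NS, 18.9, 15.4, 27.2 and 27.96 with BRG1, 2.98, 4.40 and 6.501 with BRM and 10.7, 11.1, 13.1 and 15.7 in the double group. All BRG1 and double libraries lay above all NS and BRM libraries. The log2 change was 2.17 ± 0.31 (SE, edgeR adjusted p = 0.000241) for BRG1 and 1.35 ± 0.31 (SE, edgeR adjusted p = 0.00607) for the double group (2.36 and 2.07 within the sets for the first and 1.71 and 1.13 for the second), and -0.09 ± 0.34 for BRM.

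IFIT1 (chromosome 10, 89392546 to 89406486, plus strand), which binds viral RNA that lacks the host cap methylation, held 4.08, 3.04, 1.01 and 1.39 CPM with NS, 1.46, 1.499, 1.22 and 1.28 with BRG1, 21.8, 19.5 and 11.5 with BRM and 7.54, 9.11, 3.23 and 4.01 in the double group. The BRM libraries were the highest, the double libraries lay below them and above the BRG1 libraries, and the double and NS groups overlapped. It rose by 2.87 ± 0.45 (SE, edgeR adjusted p = 0.000983) for BRM, the largest increase of a member in that comparison, with 2.52 and 3.21 within the sets. The double value was 1.30 ± 0.42 (SE, edgeR adjusted p = 0.0389) and that call was lost without NS library 2, 3 or 4, BRG1 library 1, 2 or 4, BRM library 2 or double library 1 or 2 (highest adjusted p = 0.144). For BRG1 it was -0.82 ± 0.43 (adjusted p = 0.205), at -1.28 and 0.01 within the sets, and it passed with the set term at -0.68 ± 0.25 (adjusted p = 0.0425).

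**Figure D2:**
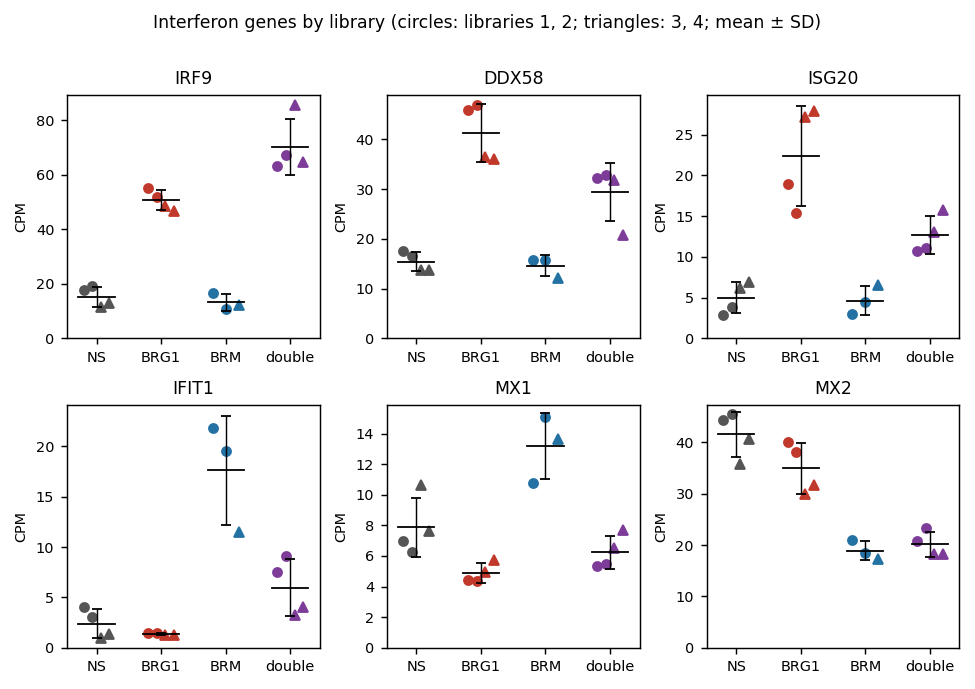
CPM (y axis, linear from 0) of IRF9, DDX58, ISG20, IFIT1, MX1 and MX2 in each library of the 4 groups, with circles for libraries 1 and 2, triangles for 3 and 4, and lines for the mean ± SD. IRF9, DDX58 and ISG20 were high in the BRG1 and double groups, IFIT1 and MX1 were highest in the BRM group, and MX2 was low in the BRM and double groups.

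MX1 and MX2 encode dynamin-like GTPases that block viruses in the cytoplasm and at the nuclear pore. MX1 (chromosome 21, 41420304 to 41459214, plus strand) held 6.99, 6.25, 10.6 and 7.62 CPM with NS, 4.42, 4.34, 4.96 and 5.75 with BRG1, 10.8, 15.1 and 13.6 with BRM and 5.36, 5.46, 6.497 and 7.67 in the double group. The BRG1 libraries lay below NS and the BRM libraries above NS, without overlap. The changes were -0.69 ± 0.21 (SE, edgeR adjusted p = 0.0281) for BRG1 and 0.75 ± 0.22 (SE, edgeR adjusted p = 0.0368) for BRM (-0.60 and -0.76 within the sets for the first and 0.97 and 0.59 for the second), and -0.33 ± 0.21 for the double group. Both calls depend on single libraries. The BRG1 call was lost without BRG1 library 1 or 2 or NS library 3 (highest adjusted p over all settings 0.105). The BRM call was lost without any other library than NS 3, BRG1 3 or BRM 1 (highest adjusted p over all settings 0.215).

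MX2 (chromosome 21, 41361943 to 41409390, plus strand) fell with BRM loss instead. It held 44.3, 45.5, 35.8 and 40.6 CPM with NS, 40.1, 38.2, 29.9 and 31.6 with BRG1, 20.95, 18.5 and 17.3 with BRM and 20.8, 23.3, 18.2 and 18.2 in the double group. The BRM and double libraries overlapped each other and lay below all NS and BRG1 libraries. The log2 change was -1.14 ± 0.16 (SE, edgeR adjusted p = 0.000511) for BRM and -1.05 ± 0.15 (SE, edgeR adjusted p = 0.000186) for the double group, with -1.19 and -1.14 within the sets for the first and -1.03 and -1.07 for the second, and -0.25 ± 0.15 for BRG1 (adjusted p = 0.25).

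BST2, IFI6 and IFIT3 were lower after BRG1 knockdown. BST2 (chromosome 19, 17402939 to 17405648, minus strand), tetherin, which holds budding viruses at the cell surface, stood at 79.04, 86.9, 52.1 and 54.00 CPM with NS, 38.3, 30.9, 42.3 and 38.4 with BRG1, 41.8, 55.6 and 65.6 with BRM and 37.7, 40.7, 49.7 and 51.04 in the double group. The BRG1 and double libraries lay below all NS libraries. The change was -0.86 ± 0.20 (SE, edgeR adjusted p = 0.00633) for BRG1 and -0.60 ± 0.20 (SE, edgeR adjusted p = 0.0428) for the double group, with -1.26 and -0.39 within the sets for the first and -1.08 and -0.08 for the second. The double call was lost without NS library 1 or 2 or double library 1 or 2 (highest adjusted p over all settings 0.505).

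IFI6 (chromosome 1, 27666061 to 27672218, minus strand), a membrane protein of the endoplasmic reticulum and mitochondria, held 6.07, 8.49, 6.09 and 5.62 CPM with NS, 2.64, 2.17, 3.61 and 3.19 with BRG1, 3.38, 5.20 and 6.04 with BRM and 2.02, 2.16, 2.99 and 4.06 in the double group. Every BRG1 and double library was below every NS library. It fell by 1.17 ± 0.28 for BRG1 and 1.22 ± 0.28 for the double group on the log2 scale (SE, edgeR adjusted p = 0.00766 and 0.0064), with -1.58 and -0.78 within the sets for the first and -1.79 and -0.74 for the second. IFIT3, a partner that stabilises IFIT1 on RNA, held 2.96, 2.96, 3.04 and 2.88 CPM with NS and 1.70, 1.45, 1.26 and 1.38 with BRG1, a change of -1.03 ± 0.24 (SE, edgeR adjusted p = 0.00688), with -0.91 and -1.16 within the sets. Its BRM and double values were -0.34 ± 0.26 and -0.30 ± 0.24, which did not pass.

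The IFITM proteins sit in endosomal membranes and hinder virus entry. IFITM3 (chromosome 11, 319669 to 327537, minus strand) held 104, 108, 169.6 and 186 CPM with NS, 56.5, 49.5, 126 and 119 with BRG1, 19.9, 30.4 and 92.4 with BRM and 62.7, 86.4, 123 and 119.6 in the double group. The BRM libraries lay below all NS libraries, but BRM library 3 stood near the NS libraries 1 and 2. The BRM change was -1.58 ± 0.50 (SE, edgeR adjusted p = 0.0485), -2.07 and -0.95 within the sets. That call was lost with RLE size factors, with no low-count filter and without any 1 of the 4 NS libraries, BRG1 library 3 or BRM library 1 or 2 (highest adjusted p 0.198). For BRG1 the change was -0.69 ± 0.44, which passed with the replicate block at -0.77 ± 0.20 (adjusted p = 0.00819), and for the double group it was -0.53 ± 0.44, which passed with the block at -0.54 ± 0.20 (adjusted p = 0.0497).

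IFITM2 (chromosome 11, 307631 to 315272, plus strand) held 27.8, 26.7, 33.8 and 36.6 CPM with NS, 14.2, 16.03, 26.9 and 24.5 with BRG1, 8.38, 13.1 and 27.99 with BRM and 20.99, 29.5, 39.02 and 31.4 in the double group. The NS and double groups overlapped. Its changes were -0.62 ± 0.32, -0.92 ± 0.36 and -0.05 ± 0.32 for BRG1, BRM and the double group, none called (adjusted p = 0.198, 0.106 and 0.946), and with the block the BRG1 value passed at -0.67 ± 0.18 (adjusted p = 0.0102) and the BRM value at -0.99 ± 0.21 (adjusted p = 0.00324). Within the sets these were -0.86 and -0.45 for BRG1 and -1.33 and -0.33 for BRM. IFITM1 was listed at 0.0801 to 0.418 CPM with NS, at most 0.197 with BRG1, 0.25 to 0.553 with BRM and 0.229 to 1.02 in the double group, below the filter. These 3 paralogs share 35.3 to 45.2% of their 31-base words with other genes, chiefly each other, so their values are uncertain. The remaining effectors that were tested, IFIT5, SAMD9, XAF1, IFI27 and IFI35, were called in no comparison with NS when all libraries were fitted (IFI35 for BRG1 in libraries 1 and 2 alone, at -0.74 ± 0.19 (adjusted p = 0.0148)), and their log2 changes ran from -1.07 (SAMD9, double group) to 0.15 (IFI35, double group).

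Some members that lie near each other in the genome had changes of different sign or size, and the examples here were picked for that. Other nearby members had changes of the same sign. These include HLA-B and HLA-C in each comparison with NS, PSMB8 and PSMB9 with BRG1 loss, and IFITM2 and IFITM3 with BRG1 or BRM loss. IFIT3, IFIT1 and IFIT5 follow each other on chromosome 10 with gaps of 51.6 and 8.10 kb (GENCODE v29, GRCh38), and after BRM knockdown their log2 changes were -0.34 ± 0.26, 2.87 ± 0.45 and 0.01 ± 0.18. IFIT5 held 7.05 to 10.1 CPM over all 15 libraries and was not called in any comparison with NS. MX2 and MX1, 10.9 kb apart on chromosome 21, fell and rose in the BRM group. HERC6 and HERC5, 14.01 kb apart on chromosome 4, changed by -1.39 ± 0.28 and 1.32 ± 0.39 in the double group, both called. PARP9 and PARP14 on chromosome 3 (116 kb apart) were 0.78 ± 0.19 and 0.21 ± 0.19 with BRM and -0.35 ± 0.18 and -0.93 ± 0.18 in the double group. The difference in change between 2 neighbours was not itself tested.

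**Figure D3:**
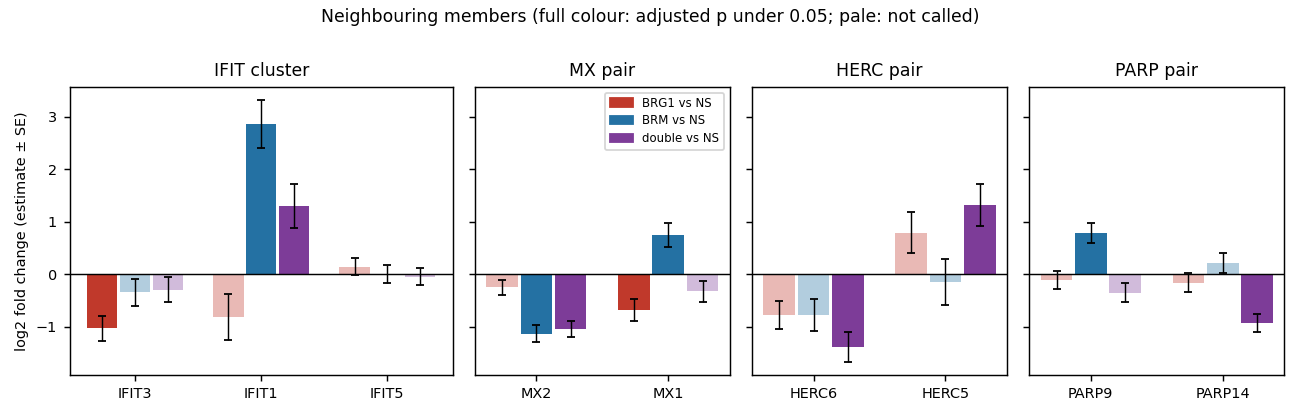
Log2 fold change against NS (y axis, bars with ± SE) of nearby members, picked because they differed, after BRG1, BRM and double knockdown. Full colour marks adjusted p under 0.05 and pale colour the others. IFIT1 rose by 2.87 with BRM loss while IFIT3 and IFIT5 on its flanks were not called there, and MX2 and MX1 lie on opposite sides of 0 with BRM loss.

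ISG15 is a ubiquitin-like modifier, HERC5 its main ligase in human cells and USP18 the protease that removes it and also restrains the interferon receptor. USP18 (chromosome 22, 18149899 to 18177397, plus strand) held 16.2, 17.1, 28.2 and 23.9 CPM with NS, 11.01, 9.36, 17.9 and 18.8 with BRG1, 31.7, 42.5 and 38.1 with BRM and 20.3, 21.8, 22.3 and 25.6 in the double group. The BRM libraries lay above all NS libraries. The change was 0.81 ± 0.25 (SE, edgeR adjusted p = 0.0468) for BRM (1.16 and 0.55 within the sets), a call lost with RLE size factors, without the low-count filter and without any other library than NS 3, BRG1 2, BRG1 3 or BRM 1 (highest adjusted p over all settings 0.241). The BRG1 value of -0.58 ± 0.24 passed with the block, at -0.59 ± 0.17 (adjusted p = 0.0165). Of its 31-base words 30.8% occur in other genes, chiefly USP41, which held at most 7 counts in a library.

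ISG15 itself held 11.8, 16.3, 24.4 and 20.9 CPM with NS, 9.31, 7.29, 23.97 and 22.9 with BRG1, 19.3, 39.2 and 49.2 with BRM and 11.4, 12.7, 32.4 and 29.8 in the double group. Libraries 3 and 4 were higher than 1 and 2 in the NS, BRG1 and double groups, and the change of 0.97 ± 0.48 for BRM did not pass (adjusted p = 0.211). Within the sets that BRM value was 1.08 and 1.12. It was called with the block at 1.11 ± 0.23 (adjusted p = 0.00307), with the set term at 1.15 ± 0.23 (adjusted p = 0.0016) and in libraries 1 and 2 alone at 1.08 ± 0.32 (adjusted p = 0.0356). Libraries 3 and 4 alone, which hold 1 BRM library, gave 1.04. For BRG1 ISG15 was -0.75 and 0.05 and for the double group -0.21 and 0.46 within the sets. HERC5 (0.372 to 0.825 CPM with NS) stood at 1.64, 1.28, 1.51 and 1.54 CPM in the double group, a rise of 1.32 ± 0.39 (SE, edgeR adjusted p = 0.0269), with 0.91 and 1.89 within the sets. That call was lost without NS library 3 or 4 or double library 1, 3 or 4 (highest adjusted p over all settings 0.232). HERC6, a related ligase, held 1.75, 2.002, 2.31 and 1.30 CPM with NS and 0.547, 0.674, 0.702 and 0.858 in the double group, without overlap. It changed by -1.39 ± 0.28 (SE, edgeR adjusted p = 0.00277), with -1.61 and -1.18 within the sets (adjusted p = 0.0675 in libraries 3 and 4 alone).

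PARP9 and PARP14 belong to the ADP-ribosyltransferase family and take part in interferon signalling. PARP9 (chromosome 3, 122527924 to 122564577, minus strand) held 15.1, 13.3, 11.4 and 11.3 CPM with NS, 11.4, 14.4, 11.3 and 10.3 with BRG1, 27.7, 19.5 and 18.7 with BRM and 9.89, 10.1, 8.53 and 11.6 in the double group. Only the BRM libraries stood clear of NS, with a rise of 0.78 ± 0.19 (SE, edgeR adjusted p = 0.0146) (0.73 and 0.72 within the sets) that was lost without BRM library 1 and within libraries 3 and 4 alone (highest adjusted p 0.0882). Its exons overlap those of DTX3L on the other strand, and the strand setting of the counting is not given in the sources used here. PARP14 (chromosome 3, 122680618 to 122730840, plus strand) held 37.8, 37.1, 29.4 and 31.8 CPM with NS, 32.1, 39.7, 24.6 and 25.6 with BRG1, 49.9, 33.9 and 34.1 with BRM and 18.3, 16.7, 18.5 and 17.9 in the double group. The double libraries lay below every other library, and the change against NS was -0.93 ± 0.18 (SE, edgeR adjusted p = 0.00195), with -1.09 and -0.75 within the sets. PARP12 was called in no comparison with NS.

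Of the 7 MHC class I members 0, 1 and 0 were called after BRG1, BRM and double knockdown (edgeR), against 22.5, 13.9 and 21.6% of all genes, and the 1 was B2M, which rose. At an unadjusted p under 0.05 the test passed 2 of the 7 for BRG1, 3 for BRM and 1 for the double group. Of all 14621 genes it passed 4927, 3983 and 4922. DESeq2 called PSMB8 for BRG1 at -0.86 ± 0.32 (adjusted p = 0.0336), 2 members for BRM and 0 for the double group. With the block and with the set term HLA-B, HLA-C and TAP1 were called higher after BRM knockdown as well. B2M (chromosome 15, 44711487 to 44718877, plus strand), the light chain shared by all class I molecules, held 152, 143, 144 and 149.6 CPM with NS, 144, 136, 125 and 121 with BRG1, 247, 281 and 175 with BRM and 188, 185, 155 and 134 in the double group. The BRM libraries lay above all NS libraries, with BRM library 3 the lowest of them. The change was 0.67 ± 0.17 (SE, edgeR adjusted p = 0.0183), at 0.84 and 0.25 within the sets, and the call was lost without NS library 2, without BRM library 2, with no low-count filter and within libraries 3 and 4 (highest adjusted p 0.498). For BRG1 and the double group it was -0.16 ± 0.16 and 0.17 ± 0.16.

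The classical heavy chains HLA-B and HLA-C bind peptide for display to T cells. HLA-C (chromosome 6, 31268749 to 31272130, minus strand) held 275, 256, 223 and 222 CPM with NS, 197, 181, 243 and 239.7 with BRG1, 274, 404 and 367 with BRM and 269.9, 288, 279 and 331 in the double group. NS overlapped each knockdown group. Its changes of -0.18 ± 0.16, 0.52 ± 0.17 and 0.26 ± 0.16 for BRG1, BRM and the double group did not pass (adjusted p = 0.486, 0.0604 and 0.281), and DESeq2 called the BRM value, at 0.50 ± 0.17 (adjusted p = 0.0263). That value was 0.35 and 0.73 within the sets and passed with the block at 0.53 ± 0.16 (adjusted p = 0.0269) and with the set term at 0.52 ± 0.15 (adjusted p = 0.0141). It was 0.64 in libraries 3 and 4 alone, which hold 1 BRM library. HLA-B (chromosome 6, 31269491 to 31357188, minus strand) held 16.7, 20.2, 7.29 and 6.78 CPM with NS, 9.66, 10.96, 8.79 and 6.39 with BRG1, 22.2, 30.5 and 16.3 with BRM and 17.3, 15.04, 12.1 and 14.8 in the double group. NS libraries 1 and 2 lay above NS libraries 3 and 4, and the values within the sets were -0.84 and 0.12 for BRG1, 0.52 and 1.21 for BRM and -0.19 and 0.93 for the double group. The pooled values were -0.51 ± 0.33, 0.85 ± 0.35 and 0.21 ± 0.33, none called with all libraries and no block. For BRM HLA-B was called with the block at 0.79 ± 0.24 (adjusted p = 0.0232) and with the set term at 0.81 ± 0.22 (adjusted p = 0.0114). With the 1 BRM library in libraries 3 and 4 alone it was 1.13. Single sets gave opposite signs elsewhere, with a call of -0.84 ± 0.20 (adjusted p = 0.0103) for BRG1 in libraries 1 and 2 alone and of 0.89 ± 0.22 (adjusted p = 0.0138) for the double group in libraries 3 and 4 alone.

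HLA-E (chromosome 6, 30489467 to 30494205, plus strand), which presents signal peptides of other class I chains to natural killer cells, held 85.9, 79.8, 118 and 110.05 CPM with NS, 97.4, 91.8, 119.9 and 141 with BRG1, 72.7, 115 and 162 with BRM and 90.7, 86.1, 137 and 143 in the double group. Libraries 3 and 4 were above 1 and 2 within each group and all 4 groups overlapped. Its changes were 0.19 ± 0.25, 0.25 ± 0.27 and 0.22 ± 0.25, none called. The 3 heavy chains share 10.3 to 15.9% of their 31-base words with other genes, mostly other class I genes, and the HLA-B gene model overlaps HLA-C. Class I genes are also highly polymorphic, and the reference carries 1 allele of each, so counts depend on how the alleles of the line match it.

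PSMB8 and PSMB9 are catalytic subunits of the immunoproteasome and TAP1 is a chain of the peptide transporter. PSMB8 held 19.1, 20.7, 36.1 and 28.6 CPM with NS, 10.5, 10.6, 17.4 and 20.5 with BRG1, 14.7, 23.9 and 29.6 with BRM and 12.5, 12.95, 17.8 and 22.3 in the double group. Within each set the BRG1 and double libraries lay below the NS libraries. The changes of -0.83 ± 0.30 for BRG1 and -0.67 ± 0.30 for the double group (adjusted p = 0.0631 and 0.129) passed with the replicate block, at -0.84 ± 0.15 (adjusted p = 0.000729) and -0.67 ± 0.15 (adjusted p = 0.0035). PSMB9 held 4.37, 3.68, 9.96 and 6.60 CPM with NS and 1.62, 1.14, 4.35 and 4.47 with BRG1, a change of -1.08 ± 0.45 (adjusted p = 0.105) that also passed with the block, at -1.16 ± 0.28 (adjusted p = 0.00558). TAP1 was 0.51 ± 0.41 for BRM (adjusted p = 0.477) and 0.79 and 0.64 within the sets. It passed there with the block at 0.68 ± 0.16 (adjusted p = 0.00594), with the set term at 0.70 ± 0.15 (adjusted p = 0.00201) and in libraries 1 and 2 alone at 0.79 ± 0.21 (adjusted p = 0.022). In the double group TAP1 was 0.53 ± 0.38 and passed with the block, at 0.57 ± 0.14 (adjusted p = 0.00674), with 0.70 and 0.45 within the sets. PSMB8, PSMB9 and TAP1 overlap each other or the gene PSMB8-AS1 on chromosome 6. PSMB8-AS1 lies on the other strand from PSMB8 and TAP1 but on the same strand as PSMB9. Of the 31-base words of PSMB9 7.11% occur in other genes, chiefly PSMB8-AS1, so its reads can be divided. The 14 constitutive proteasome subunits listed beside them were all tested. For BRG1 and for the double group 0 were called, against 22.5 and 21.6% of all genes. At an unadjusted p under 0.05 there were 1 and 2, against 4927 and 4922 of all 14621 genes. DESeq2 called 1 and 0, against 27.2 and 26.7% of all genes. After BRM knockdown only PSMA3 was called, lower at -0.75 ± 0.24, against 13.9% of all genes. The median of the 14 was -0.04, 0.17 and 0.08 for BRG1, BRM and the double group.

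**Figure D4:**
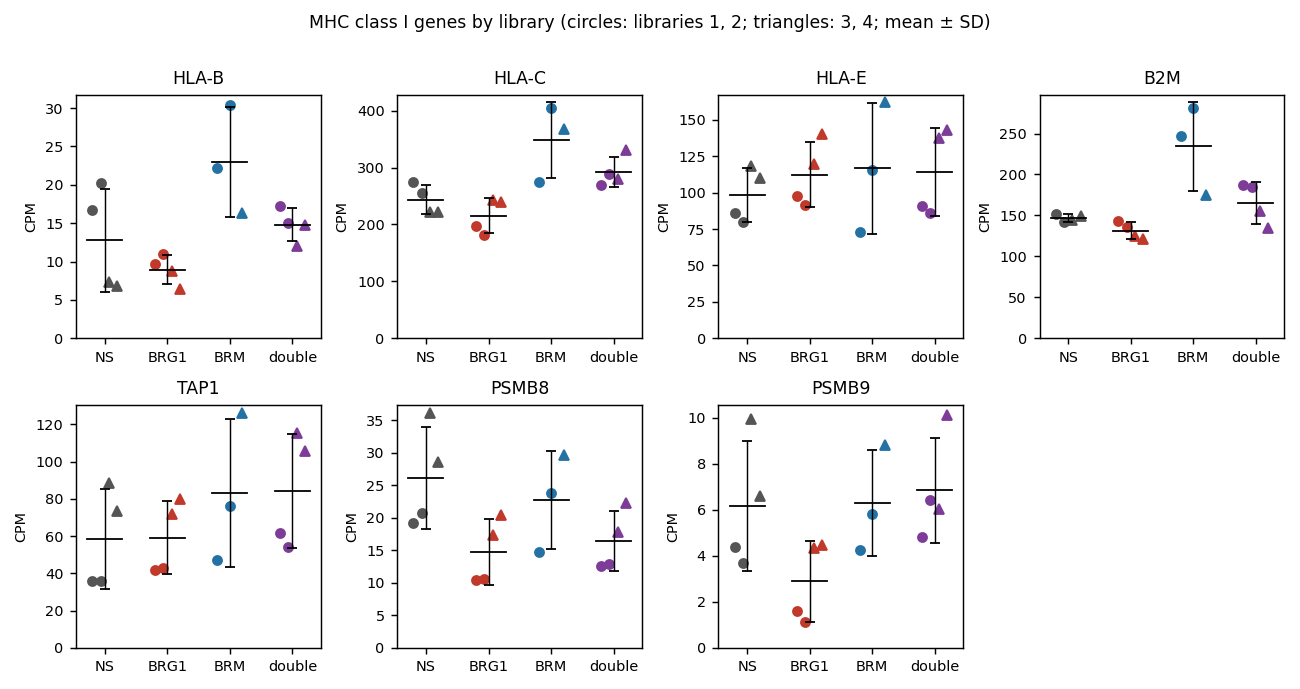
CPM (y axis, linear from 0) of the 7 MHC class I members in each library of the 4 groups, with circles for libraries 1 and 2, triangles for 3 and 4, and lines for the mean ± SD. Libraries 3 and 4 lay above 1 and 2 for HLA-E and PSMB8 in each group, and below them for HLA-B in the NS group.

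Set directly against each other, the single knockdowns differed in 12 of the 37 members, 4 higher and 8 lower with BRG1 than with BRM, where 33.9% of all genes were called, 17.2% higher and 16.7% lower. Higher with BRG1 were IRF9, DDX58, ISG20 and MX2, and lower were IFIT1, MX1, USP18, PARP9, IFIH1, B2M, HLA-B and HLA-C. The difference was -3.68 ± 0.47 (SE, edgeR adjusted p = 3.8e-05) for IFIT1, 1.95 ± 0.22 (SE, edgeR adjusted p = 1.23e-05) for IRF9 and 2.26 ± 0.35 (SE, edgeR adjusted p = 0.000192) for ISG20. For the class I genes it was -0.83 ± 0.17 (SE, edgeR adjusted p = 0.00171) in B2M, -1.36 ± 0.35 (SE, edgeR adjusted p = 0.00768) in HLA-B and -0.70 ± 0.17 (SE, edgeR adjusted p = 0.00582) in HLA-C. All 12 kept their sign in both sets of libraries, and groups did not overlap for 14 members, against 37.3% of all genes. With the replicate block 20 members were called, against 49.4% of all genes (22 and 52.4% with the set term, 16 and 38.4% with DESeq2). Same-numbered BRG1 and BRM libraries also deviated together, which cannot tell a shared number from a shared set. Among the members the block added, ISG15 was -1.43 ± 0.24 (adjusted p = 0.0002) and PSMB9 -1.41 ± 0.31 (adjusted p = 0.00192). The block also added IFI6 at -0.79 ± 0.28 (adjusted p = 0.0302), IFITM3 at 0.87 ± 0.23 (adjusted p = 0.00595), IRF3 at 0.53 ± 0.14 (adjusted p = 0.00755), OAS1 at -0.77 ± 0.23 (adjusted p = 0.0126), PSMB8 at -0.78 ± 0.17 (adjusted p = 0.00156) and TAP1 at -0.61 ± 0.16 (adjusted p = 0.00559).

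With the BRM hairpin added to the BRG1 hairpin, IFIT1 was higher and MX2 and PARP14 were lower. These 3 of 37 members were called for the double against the BRG1 group, beside 10.8% of all genes, 4.1% higher and 6.72% lower. The differences were 2.12 ± 0.43 (SE, edgeR adjusted p = 0.00592), -0.80 ± 0.15 (SE, edgeR adjusted p = 0.00309) and -0.77 ± 0.18 (SE, edgeR adjusted p = 0.0128). Without BRG1 library 4 the count was 5, and it was 9 with DESeq2 (16% of all genes), 14 with the block (22.3%) and 18 with the set term (25.5%). Groups did not overlap for 12 members, against 18.8% of all genes. With the BRG1 hairpin added to the BRM hairpin, 8 members changed, 4 up and 4 down, beside 19.1% of all genes, 9.32% higher and 9.74% lower. Groups did not overlap for 10 members, against 27.2% of all genes, and DESeq2, the block and the set term called 12, 18 and 18, against 24.3, 36.3 and 39.1%. IRF9, DDX58, ISG20 and HERC5 were higher, by 2.42 ± 0.22, 1.02 ± 0.20, 1.44 ± 0.34 and 1.47 ± 0.43, and IFIT1, PARP14, PARP9 and MX1 were lower, at -1.56 ± 0.43, -1.14 ± 0.19, -1.13 ± 0.19 and -1.08 ± 0.22 (edgeR adjusted p from 7.3e-06 to 0.0275). IFIT1 in the double group lay between the single knockdowns, above BRG1 and below BRM.

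The departure of the double knockdown from the sum of the single ones (in log2, the double change less both single changes) was called in 0 of the 37 members with edgeR, where 0.499% of all genes were called, 0.103% higher and 0.397% lower. At an unadjusted p under 0.05 there were 9 members, against 1742 of all 14621 genes. DESeq2 called 2 (PARP9 and PARP14), the replicate block 5 and the set term 8, against 3.18, 4.33 and 7.26% of all genes. PARP9 and PARP14 stood at -1.02 ± 0.26 (SE, edgeR adjusted p = 0.106) and -0.98 ± 0.26 (SE, edgeR adjusted p = 0.12), IFITM2 at 1.48 ± 0.48 (SE, edgeR adjusted p = 0.192), and IFITM3 at 1.74 ± 0.66 (SE, edgeR adjusted p = 0.286). With the block these 4 passed, at -0.996 ± 0.24 (adjusted p = 0.0368), -0.91 ± 0.23 (adjusted p = 0.0416), 1.58 ± 0.27 (adjusted p = 0.00873) and 1.88 ± 0.30 (adjusted p = 0.00647), as did OAS1 at -1.34 ± 0.31 (adjusted p = 0.0325). Without BRM library 3 the edgeR count was 1. A p that misses the threshold does not show that the 2 hairpins add up in these genes.

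Other genes of the pathway were taken from 7 lists with 98 genes, of which 78 were tested. Of these 19 were called for BRG1 (10 up, 9 down), 13 for BRM (4 up, 9 down) and 19 for the double group (11 up, 8 down), and each called gene kept its sign within both sets. These are 24.4, 16.7 and 24.4% of the 78, near the 22.5, 13.9 and 21.6% of all genes. Interferon transcripts were nearly undetected. Of 9 interferon genes, among them IFNB1, IFNA1, IFNG and IFNL1, 7 had 0 counts in all 15 libraries and the list held 4 counts in all, in 3 libraries.

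Of 11 receptor and kinase genes tested 2 were called for BRG1, 2 for BRM and 3 for the double group. These are 18.2, 18.2 and 27.3% of the 11, near the 22.5, 13.9 and 21.6% of all genes. The median log2 change of the 11 was 0.10, 0.11 and 0.01. The receptor kinases JAK1 and JAK2 were higher for BRG1 by 0.91 ± 0.18 (SE, edgeR adjusted p = 0.00266) and 1.38 ± 0.31 (SE, edgeR adjusted p = 0.00477) and for the double group by 0.84 ± 0.18 and 1.36 ± 0.31. Both were larger in libraries 1 and 2 alone than in 3 and 4 alone, with 1.18 and 0.53 for JAK1 and 1.93 and 0.61 for JAK2 with BRG1, and 1.05 and 0.56 for JAK1 and 1.67 and 0.99 for JAK2 in the double group. JAK2 held 5.63, 6.17, 7.29 and 6.37 CPM in the NS libraries and 21.8, 23.2, 9.66 and 11.6 in the BRG1 libraries. The receptor chains IFNAR2 and IFNGR2 were lower for BRM, at -0.96 ± 0.21 (SE, edgeR adjusted p = 0.00858) and -0.88 ± 0.14 (SE, edgeR adjusted p = 0.000966) (-0.90 and -1.28 for the first and -0.79 and -0.99 for the second in the sets alone), and IFNLR1, the receptor for type III interferon, was lower in the double group at -1.14 ± 0.24 (SE, edgeR adjusted p = 0.00345). Among 10 tested adaptors and kinases of nucleic acid sensing TICAM1, the adaptor of TLR3, rose from 10.98 ± 2.63 (SD, n = 4) to 56.03 ± 7.91 (SD, n = 4) CPM for BRG1, a log2 change of 2.35 ± 0.26 (SE, edgeR adjusted p = 3.41e-05), and by 1.85 ± 0.26 (SE, edgeR adjusted p = 0.000186) in the double group. TMEM173, which encodes STING, rose by 1.56 ± 0.30 (SE, edgeR adjusted p = 0.00195) for BRG1 and stood at 0.06 ± 0.30 in the double group. TRAF3 fell for BRM, at -0.68 ± 0.17 (SE, edgeR adjusted p = 0.0144), and IKBKE for the double group, at -1.67 ± 0.51 (SE, edgeR adjusted p = 0.0301).

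Of 9 other interferon regulators tested 4 were called for BRG1, 2 for BRM and 6 for the double group, in both directions. These are 44.4, 22.2 and 66.7% of the 9, against 22.5, 13.9 and 21.6% of all genes. NLRC5, the transactivator of class I genes, fell from 6.43 ± 0.107 (SD, n = 4) to 1.58 ± 0.565 (SD, n = 4) CPM for BRG1, at -2.02 ± 0.30 (SE, edgeR adjusted p = 0.000263), and was -1.16 ± 0.29 (SE, edgeR adjusted p = 0.00961) in the double group. SOCS1, an inhibitor of JAK kinases, rose from 8.59 ± 3.88 (SD, n = 4) to 34.5 ± 3.63 (SD, n = 3) CPM for BRM, at 2.01 ± 0.32 (SE, edgeR adjusted p = 0.000983). SOCS3 fell for BRM at -1.28 ± 0.38 (SE, edgeR adjusted p = 0.0369) and rose for BRG1 at 1.33 ± 0.32 (SE, edgeR adjusted p = 0.0081) and the double group at 2.32 ± 0.33 (SE, edgeR adjusted p = 0.000186). IRF5 fell for BRG1 and the double group by 2.25 ± 0.45 and 2.51 ± 0.46. SOCS2 rose with BRG1, from 6.96 ± 4.81 (SD, n = 4) to 28.03 ± 15.9 (SD, n = 4) CPM (edgeR adjusted p = 0.0119), and IRF2 rose in the double group, at 0.62 ± 0.16. SOCS1 and SOCS2 were also called higher in the double group. In the sets alone SOCS1 was 1.76 and 0.70 there, SOCS2 1.07 and 2.77 and IRF2 0.95 and 0.23.

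**Figure D5:**
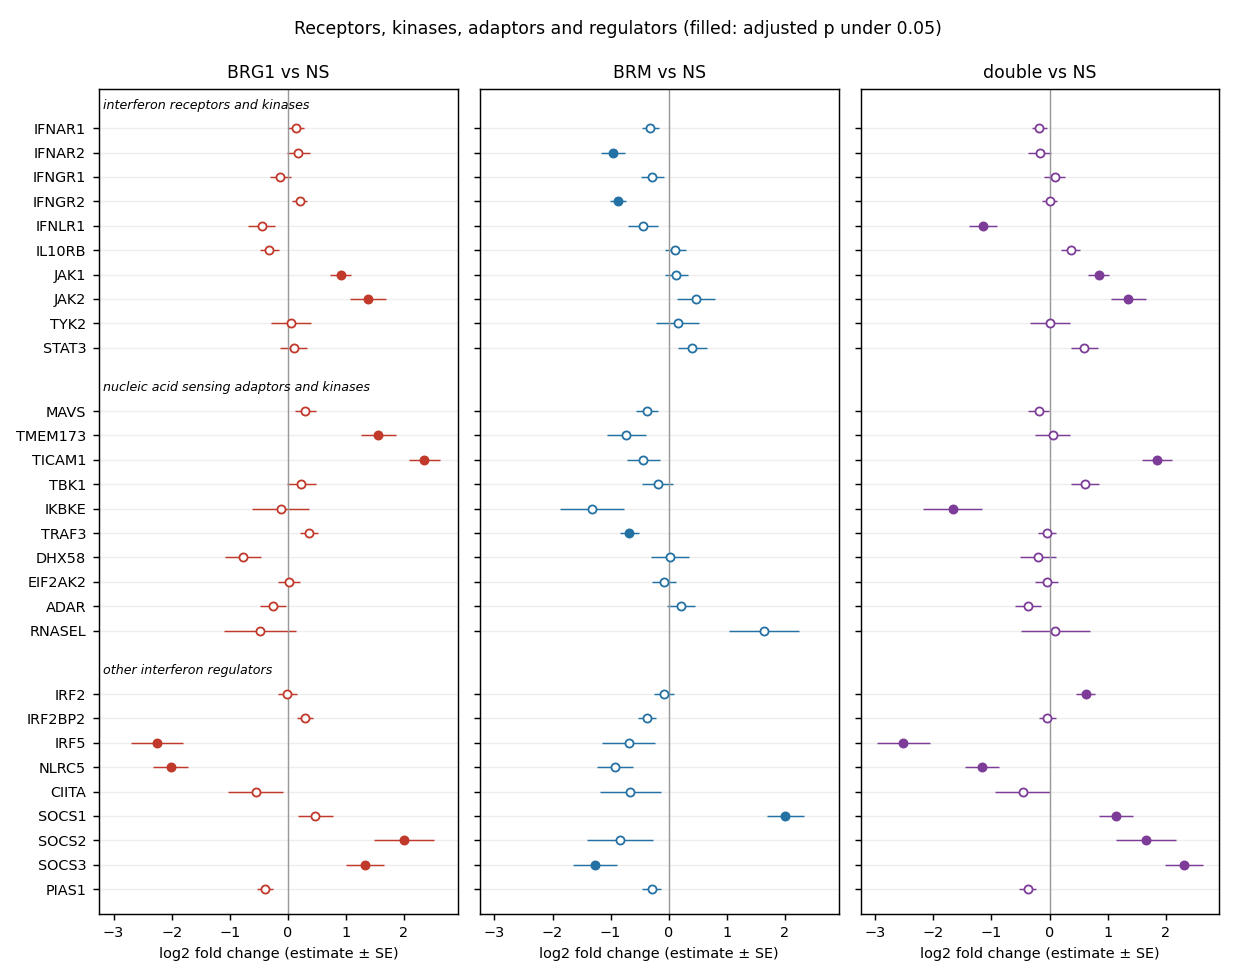
Log2 fold change against NS (x axis, estimate ± SE) of interferon receptors, kinases, sensing adaptors and regulators that are shown (rows) after BRG1, BRM and double knockdown, with filled points for adjusted p under 0.05. TICAM1, JAK1 and JAK2 are filled on the right for BRG1 and the double group, and IFNAR2 and IFNGR2 are filled on the left for BRM.

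Of 21 other interferon-stimulated genes tested 4 rose and 1 fell for BRG1, 3 rose and 1 fell for BRM and 4 rose for the double group. These are 23.8, 19 and 19% of the 21, against 22.5, 13.9 and 21.6% of all genes. For BRG1 the risers were TRIM21, SP110, TRIM5 and SP100, at 1.31 ± 0.19, 1.21 ± 0.19, 0.81 ± 0.13 and 1.44 ± 0.32. For BRM TDRD7, SHISA5 and GBP2 rose, at 0.89 ± 0.17, 0.98 ± 0.26 and 1.30 ± 0.37, and TRIM5 fell, at -0.65 ± 0.15. In the sets alone TDRD7 was 1.17 and 0.37, SHISA5 0.64 and 1.42 and GBP2 1.20 and 1.09. In the double group the risers were DDX60 at 2.99 ± 0.62, TRIM21, SP100 and TDRD7. DDX60 held 5, 3, 0 and 2 counts in NS libraries 1 to 4 and 28, 23, 29 and 15 in the double libraries. It stood near the floor in NS and passed the count filter mainly through the double group, so the size of its change is uncertain. Among 13 other antigen processing genes 6 fell for BRG1, 3 for BRM and 4 for the double group, where 9.97, 6.26 and 9.9% of all genes were called lower, and 0 rose. PSME2, an activator subunit of the proteasome, changed by -0.83 ± 0.15 for BRG1, the peptide trimming enzyme ERAP2 by -1.001 ± 0.18, the chaperone PDIA3 by -1.07 ± 0.20 and CANX by -0.78 ± 0.16. After BRM knockdown TAPBP, the tapasin that loads peptide, fell at -1.25 ± 0.25, with its relative TAPBPL at -1.36 ± 0.35 and ERAP2 at -0.82 ± 0.20. For HLA-B and HLA-C, whose peptide loading these genes serve, the values with BRM were above 0, not called with all libraries and called with the block.

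In the authors' deposited tables, whose reference group is not named and whose sign follows SMARCA4 and SMARCA2, 10 members had an adjusted p under 0.05 for BRG1 (3 up, 7 down), 10 for BRM (7 up, 3 down) and 11 for the double knockdown (5 up, 6 down). All 8, 8 and 10 members called with edgeR were among them. The members that the authors' deposited tables add are HERC6 and PSMB8 for BRG1, HLA-C and OAS1 for BRM and STAT2 for the double knockdown.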

How the data were processed

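RNA-seq of 15 HepG2 libraries in 4 groups was analysed from processed files. The deposited matrix gives estimated counts per gene symbol in whole numbers, with no scaling across libraries. The submitters' processing notes name kallisto, DESeq2 and GRCh38. Versions, annotation and strand setting: not given in the sources used here. The authors' comparison tables hold, per the file headers, a mean normalized signal, a log2 fold change with its SE, a test score and p-values.

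The 14621 genes that passed filterByExpr entered edgeR 4.0.16 (R 4.3.3), with its quasi-likelihood F test (robust, TMM factors, all 15 libraries in 1 fit of group means) in 7 contrasts, two-sided, with Benjamini-Hochberg adjustment over all genes tested, called under 0.05. The SE is the log2 change divided by the square root of F. CPM values use TMM-scaled totals and are not corrected for gene length, so levels are compared within a gene only. DESeq2 1.42.0, RLE factors, no filter, the replicate number as a block, a term for the set, each set alone and each library left out were tried as alternatives. The difference between the sets was a test chosen after seeing the data. The script was tested on simulated data.

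A replicate number counted as a pair where each correlation of deviations from the group mean passed 0.1. This held for NS and BRG1 (0.427 to 0.565), NS and double (0.179 to 0.454) and BRG1 and BRM (0.104 to 0.532). What a number stands for is not in the labels. Differently numbered libraries of the same set were not compared, so the correlations cannot tell a shared number from a shared set. Within a group and set, chi-square over its degrees of freedom was 5.50 to 72.05 between libraries, so none agreed within sampling noise. Coordinates, exon overlaps and shared 31-base words come from GENCODE v29 (GRCh38), which may differ from the authors' annotation, and promoters from RefSeq (GRCh38.p14).

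The members, lists and tests were chosen with earlier results of these data known. Per-library values were set for members called against NS or in the interaction, at most 20 per comparison by adjusted p, and for the class I heavy chains, B2M, STAT2, IRF9 and the IFITM genes. From each other list up to 4 called genes per comparison are named by adjusted p, and 1 listed gene is not reported here. Any other member given with values, such as ISG15 and PSMB8, was chosen after its values were seen.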

Additional observations from a re-analysis of the deposited data

Results flagged for a closer look

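In 5 of 111 groups of 4 libraries tested, 1 library stood farther from the rest than Dixon's 95% limit allows, about the 1 in 20 that chance gives. Double library 4 was the odd one in 4 of them. It held 20.8 CPM of DDX58 where the other double libraries held 31.9 to 32.9, 7.09 of IFIT5 where they held 7.90 to 8.03, 52.8 of IFI35 where they held 21.6 to 25.4, and 19.3 of PARP12 where they held 14.1 to 14.6. NS library 2 held 8.49 CPM of IFI6 where the other NS libraries held 5.62 to 6.09.

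BST2 responded differently in the 2 sets of libraries. In a fit with a mean for each group and set, its log2 change in libraries 3 and 4 exceeded that in libraries 1 and 2 by 1.07 ± 0.25 for BRM (-0.77 and 0.30 in libraries 1 and 2 and in 3 and 4, edgeR adjusted p = 0.0402) and by 1.01 ± 0.22 for the double group (-1.08 and -0.08, adjusted p = 0.0256). Of all genes 2.26 and 3.71% were called in these tests (2.49% for BRG1), which hold 1 BRM library in the second set.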

How the results depend on the processing

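Of the 26 member calls against NS, 15 held under all 22 alternatives and 11 were lost under at least 1, and none changed sign. Over all 7 comparisons 33 of 49 member calls held. For all genes the calls were 3284 for BRG1, 2035 for BRM, 3165 for double, 1582 for double against BRG1, 2787 for double against BRM, 4957 for BRG1 against BRM and 73 for the interaction. With the replicate block these became, in that order, 5318, 4153, 5200, 3259, 5302, 7219 and 633, and with the set term 5720, 4684, 5646, 3728, 5718, 7659 and 1061. Within libraries 1 and 2, where 14488 genes were tested, the counts were 5645 for BRG1 and 4064 for BRM. There they were 3981 for double against BRG1, 4520 for double against BRM, 7254 for BRG1 against BRM and 1619 for the interaction. Within libraries 3 and 4 they were 3061 for BRM, 5045 for double and 243 for the interaction, for which DESeq2 gave 465. Among the members the replicate block gave 14, 15, 14, 18, 20 and 5 calls for BRG1, BRM, double against BRG1, double against BRM, BRG1 against BRM and the interaction, the set term 16, 15, 18, 18, 22 and 8, and libraries 1 and 2 alone 17 for BRG1, 12, 15 and 21 for those between knockdowns and 9 for the interaction. Without the low-count filter 4 members were called for BRM, against 1518 of 24624 genes. The set of libraries 3 and 4 holds 1 BRM library, so its counts for BRM and the interaction rest on that library. DESeq2 called 9 members for double against BRG1 and 2 for the interaction, against 2344 and 465 of 14621 genes. Libraries 3 and 4 alone gave 6 members for double against BRG1, against 1608 of 14705 genes. Leaving out 1 library at a time gave 7 to 10 members for BRG1, 3 to 8 for BRM, 8 to 11 for double, 3 to 5 for double against BRG1, 6 to 10 for double against BRM, 12 to 17 for BRG1 against BRM and 0 to 1 for the interaction. For all genes the ranges were 2384 to 3454, 959 to 2063 (959 without BRM library 2), 2316 to 3325, 934 to 1714, 1951 to 2799, 3929 to 4990 and 38 to 166. The count for double against BRG1 moved by over 1.5 times without library 1 or 2 of the BRG1 or double group, and that of the interaction without NS library 3 or 4, BRG1 library 1, 2 or 3, BRM library 1 or 2 or double library 1 or 2. Values that changed sign were uncalled in the edgeR fit of all libraries, but some passed within 1 set, among them IRF1 at -0.88 ± 0.24 (adjusted p = 0.0175) for BRG1 in libraries 1 and 2, HLA-B at -0.84 ± 0.20 (adjusted p = 0.0103) for BRG1 in libraries 1 and 2 and 0.89 ± 0.22 (adjusted p = 0.0138) for double in libraries 3 and 4, and IFIH1 at -1.06 ± 0.26 (adjusted p = 0.0126) for double in libraries 3 and 4, where libraries 1 and 2 gave 0.16. Libraries 3 and 4 alone gave 0.075 for HLA-B and 0.081 for HLA-C (BRG1) and -0.066 for B2M (double), and libraries 1 and 2 alone -0.19 for HLA-B (double). With 1 library left out HLA-E for BRM ran from -0.10 to 0.50 (-0.10 without BRM library 3), HLA-B for double from -0.0013 (without NS library 4) to 0.48, and IFITM2 for double from -0.24 to 0.045, at 0.036 without NS library 4 and 0.045 without double library 1. The cause was not tested. Correlations did not pass for NS with BRM or for the double with either single knockdown. Where they passed, a shared number and a shared set cannot be told apart, so the block is only a shared number. Depth limits the genes under the count filter, which include 7 members.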
